A study of Mus musculus with 7 samples.

Results

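Antioxidant defence was examined in pancreatic islets as a group of 34 genes, taken from the 22911 genes with a named probe on the array. They were chosen by function and comprise the NRF2 switch and some of the enzymes it induces, glutathione synthesis and reduction, the superoxide dismutases, catalase, the glutathione peroxidases, the peroxiredoxins, the thioredoxin system and 4 glutathione transferases. Each gene was represented by its brightest probe over all arrays. Of the 34 genes, 31 were bright enough to be tested. None of the 31 differed between Wnt4βKO and control islets after adjustment over all tested probes, and the 2 with the strongest single evidence, Prdx4 and Gsr, both had lower values in Wnt4βKO islets.

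Cells hold reactive oxygen species in check in steps. Superoxide dismutases turn superoxide into hydrogen peroxide, which catalase, glutathione peroxidases and peroxiredoxins then remove, and glutathione reductase and the thioredoxin reductases return the spent thiols to their reduced form with electrons from NADPH. Many of these genes are induced by the transcription factor NRF2, which KEAP1 marks for destruction until oxidants or electrophiles modify KEAP1. β-cells are known for weak expression of several peroxide-removing enzymes, catalase among them.

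Islets of male mice were profiled in 7 samples, 3 control and 4 Wnt4βKO. The study's methods do not state the number of mice per sample. The Wnt4βKO mice carried Pdx1CreER, a Cre recombinase driven by the Pdx1 promoter and activated by tamoxifen, together with floxed Wnt4 on both chromosomes. Control mice had the same floxed Wnt4 alleles without the Cre transgene, and their genotype field reads WT. Both groups received tamoxifen by gavage at 4 to 5 weeks of age, on a background crossed to C57BL/6J, and islets were collected at 7 weeks per the protocol in the labels, although "w11" stands in the title of each sample without being explained. Because no control carried Cre, effects of the Cre transgene and of Wnt4 loss cannot be told apart. The study states that a further control sample was left out for failing quality tests. Nothing in the labels says that the samples of a group came from separately prepared batches, so p-values measure only the spread between these samples.

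Values are log2 array signals after background correction and quantile normalisation, so a difference of 1 is a doubling of the corrected signal. The correction adds an offset of 50 to every signal, which shrinks the differences of dim probes. Levels of different probes cannot be compared with each other. Between 45.5% and 49.0% of spots were well above background on an array, and with 7 arrays the precision of all values is limited by their number. Wnt4 itself was at 71.3% of the control level (log2 fold change -0.49 ± 0.17 (SE), unadjusted limma p 0.0232, adjusted p 0.651), measured by a probe whose place relative to the deleted part was not determined. In whole-islet RNA, fewer cells of a type and less RNA per cell cannot be told apart. All 12 β-cell markers examined and all 8 markers of the other endocrine cells were well above background on all 7 arrays. The same held for all 23 acinar markers with a probe, genes of the enzyme-secreting cells that surround islets. On the control arrays (replicates 2, 3 and 4) their mean log2 signal was 13.32, 13.16 and 13.29. On the Wnt4βKO arrays (replicates 1 to 4) it was 12.02, 13.06, 12.90 and 12.35, so that every Wnt4βKO array lay below every control array. The 12 β-cell markers had a median log2 fold change of -0.003, with Slc2a2, the glucose transporter GLUT2, alone past the adjusted threshold (-1.54, adjusted limma p 0.00877). Their array means were 10.95 to 11.21 in Wnt4βKO and 11.22 to 11.26 in control islets. Without Slc2a2, which was set aside after its value was seen, the ranges overlapped (11.17 to 11.49 against 11.34 to 11.38). Immune markers were highest in Wnt4βKO replicate 4, at 8.96 against 7.90 to 8.21 on the other arrays, and the ranges of duct, endothelial, mesenchymal and other endocrine markers overlapped between the groups.

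Promoter sequences show which of these genes carry the letters that NRF2 is known to bind near their start. NRF2 acts with small MAF proteins on the antioxidant response element, whose core was searched as TGACNNNGC on both strands, from 250 bases before to 50 bases after each RefSeq start (assembly GRCm38.p6). A promoter window was found for 28 of the 34 genes. Gsr, Gclc, Hmox1, Prdx6, Sod3 and Gsta4 had none. The core was present in 7 of the 28 genes (25%), and in 3781 of 27025 genes with a window (14.0%), or 4071 of 32851 windows (12.4%). In Srxn1 the match began at position 28 after the start. In the other 6 it lay upstream, and these stretches are shown on the gene's strand with up to 24 bases on each side and the match in capitals, which reads GCNNNGTCA where it lies on the opposite strand.
Nfe2l2, chr2:75704871-75704913, - strand: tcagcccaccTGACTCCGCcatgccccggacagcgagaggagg
Gclm, chr3:122245399-122245455, + strand: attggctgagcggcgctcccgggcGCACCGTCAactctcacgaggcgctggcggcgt
Prdx1, chr4:116685442-116685498, + strand: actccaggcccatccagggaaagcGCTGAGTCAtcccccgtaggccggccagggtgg
Sod1, chr16:90220682-90220738, + strand: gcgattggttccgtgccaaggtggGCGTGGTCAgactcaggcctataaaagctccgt
Txnrd1, chr10:82859090-82859146, + strand: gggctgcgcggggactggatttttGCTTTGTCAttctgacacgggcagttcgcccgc
Mgst1, chr6:138140447-138140503, + strand: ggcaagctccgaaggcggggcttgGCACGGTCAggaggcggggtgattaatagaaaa
The matches began at -240 in Nfe2l2, -134 in Gclm, -133 in Prdx1, -92 in Txnrd1 and -56 in both Sod1 and Mgst1. A match is a description of letters, and binding was not measured. The fitted log2 fold changes of the 7 genes with the core ranged from -0.21 for Srxn1 to 0.21 for Mgst1. Neither Prdx4 nor Gpx2, the genes with the lowest fitted values, held the core in the window. The 120 bases before the start of Prdx4 are shown in lower case throughout, since no letters matched.
Prdx4, chrX:155338461-155338580, - strand: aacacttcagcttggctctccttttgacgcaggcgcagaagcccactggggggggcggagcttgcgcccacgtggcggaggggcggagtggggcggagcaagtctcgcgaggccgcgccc

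The question posed by the comparison was which transcripts differ in islets whose β-cells lost Wnt4. No antioxidant defence gene passed an adjusted limma p under 0.05, against 4 of the 26151 tested probes (0.0153%), and the adjusted p of the 31 genes ranged from 0.655 to 0.999. At an unadjusted p under 0.05, 2 of 31 genes passed (6.45%), close to the 6.96% of all probes. Both were lower in Wnt4βKO islets, a direction in which 3.63% of all probes passed. In no gene did the arrays of both groups stand apart without overlap, which they did in 7.24% of probes. Fitted values were below 0 for 18 genes and above 0 for 13, with a median log2 fold change of -0.01, beside 0.003 for all probes. The fitted change was smaller than 0.25 in either direction for 26 genes.

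The intervals set how much could have been missed on the scale of the corrected signal. The 95% interval of the log2 fold change lay within -0.5 to 0.5 for 17 genes and within -1 to 1 for 27, so a doubling or halving lay outside the interval of those 27. For Prdx4, Gpx2, Prdx6 and Txn1 it did not. The spread between arrays of a group, as the within-group SD, had a median of 0.20 for the tested genes and 0.16 for all probes, and ranged from 0.04 for Gpx7 to 0.73 for Prdx6.

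**Figure D1:**
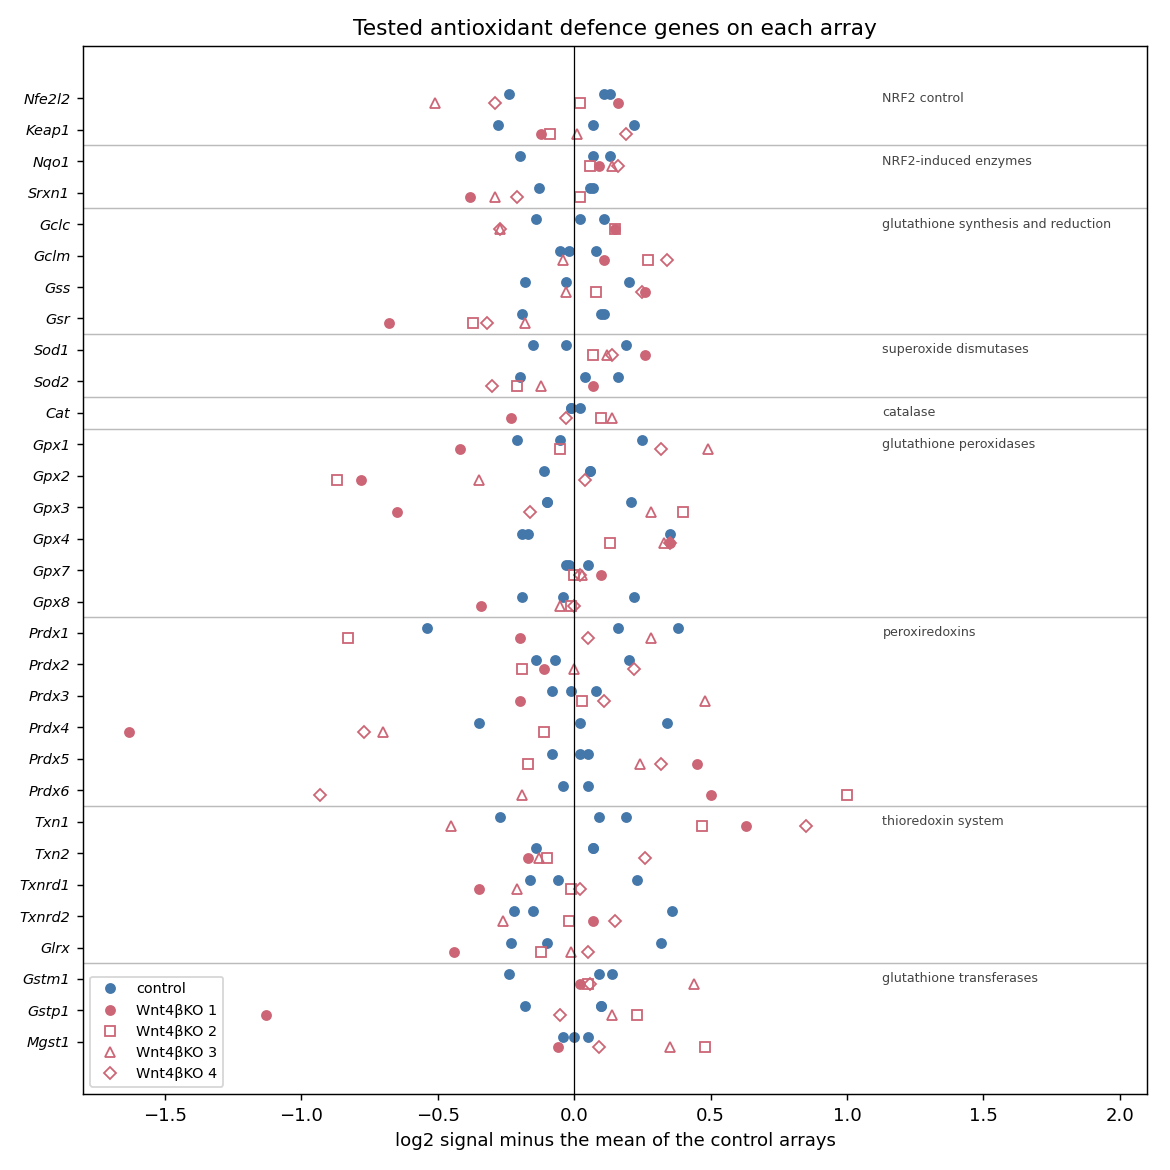
Log2 signal of each tested gene on each array, as the difference from the mean of the 3 control arrays, grouped by role (blue circles, control; red symbols, Wnt4βKO replicates 1 to 4). The points of the groups overlap for all 31 genes, and the filled red circles of Wnt4βKO replicate 1 hold the lowest value for 13 of them.

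**Figure D2:**
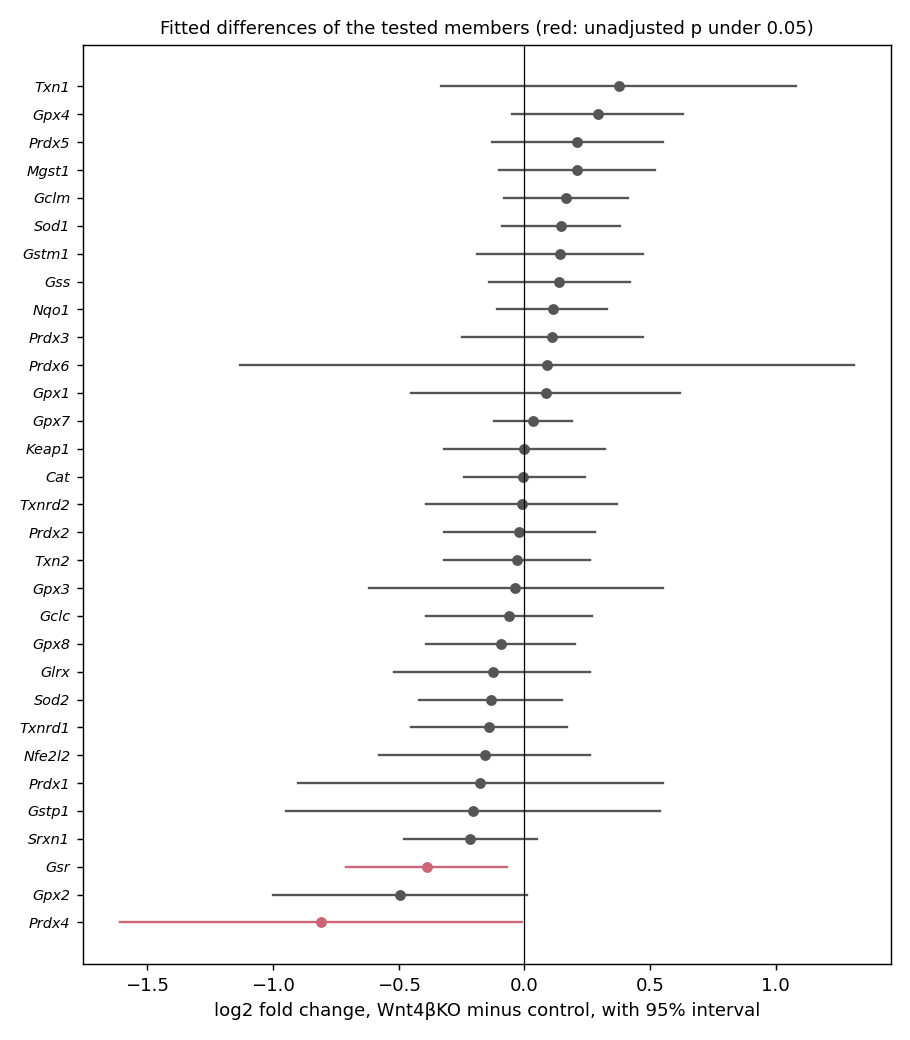
Fitted log2 fold change of the 31 tested genes, Wnt4βKO minus control, with 95% intervals from limma. Only the intervals of Gsr and Prdx4, in red, lie below 0, and that of Prdx6 is the widest, from -1.13 to 1.31.

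Neither gene of the NRF2 switch passed either threshold. Nfe2l2, which encodes NRF2, had log2 signals of 7.90, 7.53 and 7.88 on the control arrays and 7.93, 7.79, 7.26 and 7.48 on those of Wnt4βKO islets (here and below in the order of replicates 2, 3 and 4 for control and 1 to 4 for Wnt4βKO). The highest and the lowest value were both in Wnt4βKO islets, and the log2 fold change was -0.16 ± 0.18 (SE; adjusted limma p 0.911). Keap1, encoding the inhibitor of NRF2, had 10.19, 9.69 and 10.04 in control and 9.85, 9.88, 9.98 and 10.16 in Wnt4βKO islets. Its Wnt4βKO arrays lay inside the range of the control arrays, with a log2 fold change of 0.00 ± 0.14 (SE; adjusted p 0.999) and a 95% interval of -0.32 to 0.32.

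Enzymes classically induced by NRF2 were partly too dim to test. Hmox1, the inducible haem oxygenase, was well above background on 1 of 7 arrays, a control, and was not tested. Nqo1, a quinone reductase, was near background, being well above it on 2 of 3 control and 4 of 4 Wnt4βKO arrays, and its log2 fold change was 0.11 ± 0.09 (SE; adjusted p 0.87). Srxn1, sulfiredoxin, restores over-oxidised peroxiredoxins. It had log2 signals of 8.66, 8.86 and 8.85 in control and 8.41, 8.81, 8.50 and 8.58 in Wnt4βKO islets. Only Wnt4βKO replicate 2 reached the control range, and the log2 fold change was -0.21 ± 0.11 (SE; unadjusted p 0.094, adjusted p 0.766). Without that array it was -0.29 (unadjusted p 0.0185), and with the mean of the acinar markers as a covariate -0.06. Of the 7 fits that left out 1 array, only that 1 passed the unadjusted threshold.

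Of the 4 glutathione genes, only reductase had an unadjusted p under 0.05. Gsr, glutathione reductase, regenerates reduced glutathione from its disulfide with NADPH. Control islets had log2 signals of 9.87, 9.58 and 9.88, and Wnt4βKO islets 9.09, 9.40, 9.59 and 9.45. Replicate 3 of Wnt4βKO, at 9.59, overlapped control replicate 3, at 9.58, and the other 3 Wnt4βKO arrays lay below all controls. The log2 fold change was -0.39 ± 0.14 (SE), or 76.4% of control (95% interval -0.71 to -0.07; unadjusted limma p 0.0237, adjusted p 0.655). The arrays lay in a pair of rows on 1 slide, and within row 1 (1 control, 2 Wnt4βKO) the difference was -0.63 and within row 2 (2 control, 2 Wnt4βKO) -0.20. It ranged from -0.49 to -0.29 with single arrays left out and did not pass the unadjusted threshold without control replicate 2 or 4. The genes of glutathione synthesis had smaller fitted changes. Gclm, the modifier subunit of the rate-limiting ligase, had log2 signals of 9.53, 9.63 and 9.50 in control and 9.66, 9.82, 9.51 and 9.89 in Wnt4βKO islets. Of its Wnt4βKO arrays, 3 lay above the controls and 1 lay among them, for a log2 fold change of 0.17 ± 0.11 (SE; adjusted p 0.818). It was 0.24 without Wnt4βKO replicate 3 (unadjusted p 0.0419), the only 1 of the 7 fits leaving out 1 array that passed the unadjusted threshold. The catalytic subunit Gclc (-0.06) and the synthetase Gss (0.14) had intervals that included 0.

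No superoxide dismutase passed either threshold with all arrays included. Sod1, the cytosolic enzyme, had log2 signals of 12.90, 12.56 and 12.68 in control and 12.97, 12.78, 12.83 and 12.85 in Wnt4βKO islets. All Wnt4βKO arrays lay above control replicates 3 and 4, and only replicate 1 lay above control replicate 2. The log2 fold change was 0.14 ± 0.10 (SE; adjusted p 0.842). It was 0.24 without control replicate 2 (unadjusted p 0.0397) and 0.07 without control replicate 3. Of the 7 fits that left out 1 array, only that without control replicate 2 passed the unadjusted threshold. Mitochondrial Sod2 had a log2 fold change of -0.13 (adjusted p 0.884), with overlapping groups. Sod3, the extracellular enzyme, was well above background on 0 of 7 arrays and was not tested.

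Catalase, encoded by Cat, was among the weakly detected genes. It was well above background on 3 of 3 control and 3 of 4 Wnt4βKO arrays, at log2 signals of 6.23, 6.20 and 6.20 in control and 5.98, 6.31, 6.35 and 6.18 in Wnt4βKO islets. The controls were nearly alike and the Wnt4βKO arrays fell on both sides of them, with a log2 fold change of 0.00 ± 0.10 (SE; adjusted p 0.998; 95% interval -0.24 to 0.24).

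The glutathione peroxidases held the second lowest and the second highest fitted values among the 31 genes. Gpx2, a cytosolic form best known from the gut epithelium, had log2 signals of 8.83, 8.66 and 8.83 in control and 7.99, 7.90, 8.42 and 8.81 in Wnt4βKO islets. For 3 Wnt4βKO arrays the value lay below all controls, whereas replicate 4 lay among them. The log2 fold change was -0.49 ± 0.22 (SE; 71.0% of control; unadjusted p 0.0548, adjusted p 0.728), and the difference was -0.89 in slide row 1 and -0.13 in row 2. Without Wnt4βKO replicate 4 it was -0.68 (unadjusted p 0.0036), the only 1 of the 7 fits leaving out 1 array that passed the unadjusted threshold. Gpx4, which protects membrane lipids and limits ferroptosis, had 11.20, 11.18 and 11.72 in control and 11.72, 11.50, 11.70 and 11.72 in Wnt4βKO islets. Its Wnt4βKO arrays lay above control replicates 2 and 3. Wnt4βKO replicates 1, 3 and 4 reached about the level of control replicate 4, and replicate 2 lay below it. The log2 fold change was 0.29 ± 0.15 (SE; unadjusted p 0.0838, adjusted p 0.759), with -0.11 in row 1 and 0.52 in row 2. Without control replicate 4 it was 0.47 (unadjusted p 0.00246), and with array weights 0.34 (unadjusted p 0.0417). Leaving out any other single array did not bring Gpx4 past the unadjusted threshold (1 of 7 fits passed).

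Gpx1, the main cytosolic glutathione peroxidase of most tissues, was well above background on all arrays. Its log2 signal was 11.66, 11.96 and 11.50 in control and 11.29, 11.66, 12.20 and 12.03 in Wnt4βKO islets. The Wnt4βKO arrays spread over a wider range that enclosed the controls, and the log2 fold change was 0.09 ± 0.23 (SE; adjusted p 0.965). The secreted form Gpx3 had a log2 fold change of -0.04, and the endoplasmic reticulum forms Gpx7 and Gpx8 had 0.03 and -0.10, none with an adjusted p under 0.92. Gpx7 was well above background on only 3 of 7 arrays, 1 control and 2 Wnt4βKO, so its small difference was measured close to background.

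The peroxiredoxins held the largest difference. Prdx4, which reduces peroxide in the endoplasmic reticulum and supports disulfide formation in secretory proteins, had log2 signals of 9.24, 9.61 and 9.93 in control islets. Wnt4βKO islets had 7.96, 9.48, 8.89 and 8.82. Replicate 2 of Wnt4βKO lay among the controls, the others lay below them, and replicate 1 was lowest by a wide margin. The log2 fold change was -0.81 ± 0.34 (SE), or 57.1% of control, with a 95% interval of -1.61 to -0.01 (unadjusted limma p 0.0477, adjusted p 0.71). It was -1.21 within slide row 1 and -0.57 within row 2. Without Wnt4βKO replicate 1 the value was -0.53 (unadjusted p 0.0641), and it passed the unadjusted threshold in 2 of the 7 fits that left out 1 array, those without control replicate 2 and without Wnt4βKO replicate 2.

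The other peroxiredoxins did not pass either threshold with all arrays included. Prdx5, found in mitochondria, peroxisomes and cytosol, had log2 signals of 10.91, 11.01 and 11.04 in control and 11.44, 10.82, 11.23 and 11.31 in Wnt4βKO islets. The values of 3 Wnt4βKO arrays lay above the controls and that of replicate 2 below them, for a log2 fold change of 0.21 ± 0.15 (SE; adjusted p 0.846). It was 0.34 without that array (unadjusted p 0.00829) and -0.11 with the acinar covariate. Leaving out any other single array did not bring Prdx5 past the unadjusted threshold (1 of 7 fits passed). Prdx1, a cytosolic form, had 11.12, 10.90 and 10.20 in control and 10.54, 9.91, 11.02 and 10.79 in Wnt4βKO islets. The groups overlapped over most of their ranges, and the log2 fold change was -0.18 ± 0.31 (SE; adjusted p 0.941). The 3 probes of Prdx1 ordered the arrays differently: control replicate 2 was the highest control on the brightest probe, at 11.12, and the lowest on the next, at 9.07, although all 3 fitted log2 fold changes were negative (-0.33 to -0.15). Cytosolic Prdx2 (-0.02) and mitochondrial Prdx3 (0.11) had intervals that included 0.

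For Prdx6, which also acts on phospholipid peroxides, the estimate rested on 2 controls. The spot of control replicate 2 was marked as non-uniform or as an outlier by the scanner software and was left out. The remaining log2 signals were 9.81 and 9.72 in control and 10.26, 10.76, 9.57 and 8.83 in Wnt4βKO islets. The Wnt4βKO arrays thus spread above and below both controls. A second Prdx6 probe covered a smaller range, 8.87 to 9.69 over all 7 arrays, and the fitted values of the probes were 0.09 and -0.13.

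In the thioredoxin system the spread of Txn1 was the widest. Txn1, cytosolic thioredoxin, had log2 signals of 8.23, 7.87 and 8.33 in control and 8.77, 8.61, 7.69 and 8.99 in Wnt4βKO islets. The values of 3 Wnt4βKO arrays lay above all controls and that of replicate 3 below all of them. The log2 fold change of 0.38 ± 0.30 (SE) was the highest of the 31 genes, with an adjusted p of 0.867 and a 95% interval of -0.33 to 1.08. It was 0.66 without Wnt4βKO replicate 3 (unadjusted p 0.00531), 0.22 without replicate 4 and -0.03 with the acinar covariate (p 0.938). Of the 7 fits that left out 1 array, only that without Wnt4βKO replicate 3 passed the unadjusted threshold. Mitochondrial Txn2 (-0.03), the reductases Txnrd1 (-0.14) and Txnrd2 (-0.01) and glutaredoxin Glrx (-0.13) had intervals that included 0. Txn2 and Txnrd1 each had a second probe with a fitted value of the opposite sign (0.09 and 0.13).

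Of the glutathione transferases, which couple glutathione to electrophiles, 3 of 4 were tested. Gsta4 was well above background on 0 of 7 arrays. Gstp1 had log2 signals of 8.71, 8.99 and 8.99 in control and 7.76, 9.12, 9.03 and 8.84 in Wnt4βKO islets. A single array, Wnt4βKO replicate 1, lay far below the rest, and the log2 fold change was -0.20 ± 0.32 (SE; adjusted p 0.931) with that array, 0.10 without it and 0.54 with the acinar covariate (unadjusted p 0.107). The membrane-bound Mgst1 had 6.32, 6.28 and 6.37 in control and 6.26, 6.80, 6.67 and 6.41 in Wnt4βKO islets. Here Wnt4βKO replicate 1 was the only one below the controls, and the log2 fold change was 0.21 ± 0.13 (SE; adjusted p 0.824). Without that array it was 0.30 (unadjusted p 0.0363), the only 1 of the 7 fits leaving out 1 array that passed the unadjusted threshold. Its second probe, well above background on 3 of 7 arrays, had a fitted value of -0.12. Gstm1 had 0.14 on its brightest probe (unadjusted p 0.342) and 0.19 on its other (unadjusted p 0.0391, adjusted p 0.691).

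Low values gathered on a single array. Wnt4βKO replicate 1 held the lowest value of 13 of the 31 genes (41.9%), whereas it held the lowest value of 18.0% of all tested probes. It also held the highest value of 6 genes (19.4%), beside 19.1% of all probes. The remaining 6 arrays each held the lowest value of 2 to 4 genes. The same array had the lowest acinar mean, 12.02, and the lowest values of Gsr and Prdx4. With the acinar mean of each array as a covariate, the log2 fold change was -0.15 for Gsr (unadjusted limma p 0.407) and -0.04 for Prdx4 (p 0.895), and Gpx2 was at -0.57 (p 0.14). In that fit Mgst1, at 0.55 (p 0.0011), and Gpx3 were past an unadjusted p under 0.05, and 2.21% of all probes were. The acinar markers themselves had lower fitted values, with a median log2 fold change of -0.55 and 8 of 23 past an unadjusted p under 0.05, all lower. Their part in the differences of Gsr and Prdx4 was not tested beyond this covariate, which was itself lower in all Wnt4βKO arrays.

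**Figure D3:**
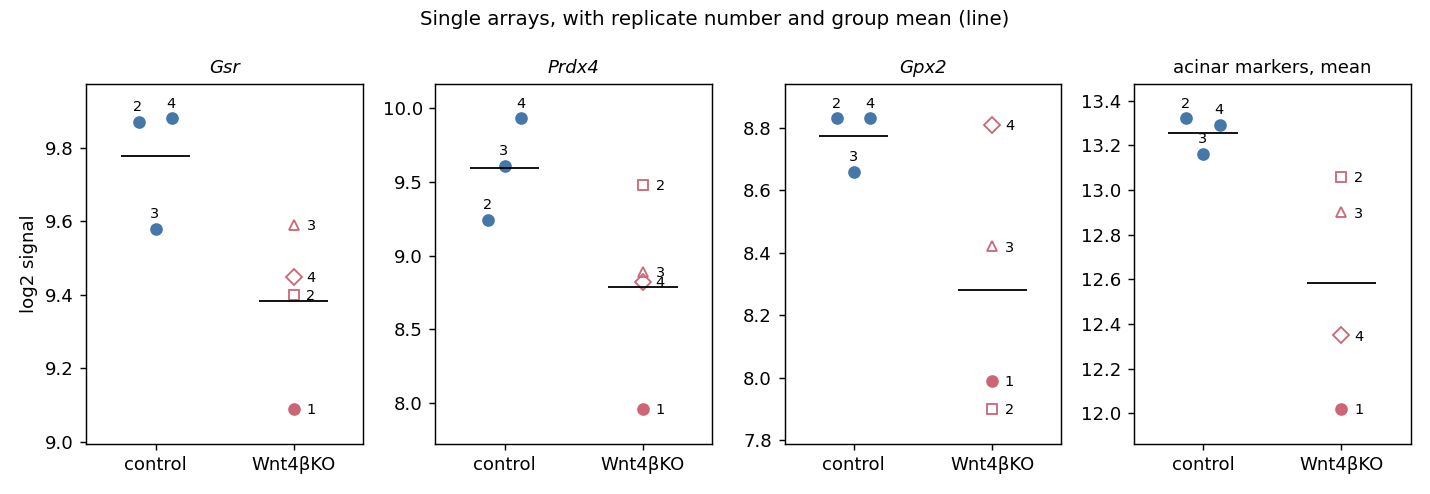
Log2 signal of Gsr, Prdx4 and Gpx2 and the mean log2 signal of 23 acinar markers on each array, with replicate numbers beside the points and lines at the group means; each panel has its own scale. Wnt4βKO replicate 1 is lowest in the panels of Gsr, Prdx4 and the acinar markers, whereas Gpx2 is lowest in replicate 2.

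Genes that feed, regulate or extend these systems were examined in 8 further lists of 101 genes, of which 99 had a probe and 86 were tested. None passed an adjusted limma p under 0.05, and the lowest adjusted p was 0.44. At an unadjusted p under 0.05, 14 genes were lower and 3 higher, that is 17 of 86 (19.8%) beside 6.96% of all probes, with 16.3% lower beside 3.63%. The groups did not overlap for 13 genes (15.1%, beside 7.24%), with all Wnt4βKO arrays below the controls in 11 and above in 2. The median log2 fold change over the 86 genes was -0.05. Since the lists were chosen with earlier results of these data known, their counts are a description. With the acinar mean as a covariate, 4 of the 86 passed the unadjusted threshold, beside 2.21% of all probes. When each of the 7 arrays was left out in turn, Txnip, Cbs, Ggt1, Idh2, Msra, Sesn2, Gstt3 and Hmox2 passed it every time. Cth, Chac1 and Ero1b passed in 6 of 7 fits (not without control replicates 4, 2 and 3, respectively), Msrb1 in 3, Pgd and Fbxw11 in 2 and Sqstm1 in 1.

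The list of other thioredoxin-related and redox repair proteins, sestrins included, held 6 of the 17 genes. Txnip, the thioredoxin-binding protein that glucose is known to induce in β-cells, had log2 signals of 11.63, 11.37 and 11.41 in control and 10.25, 10.53, 10.91 and 10.75 in Wnt4βKO islets. All Wnt4βKO arrays lay below all controls, at 55.0% of control, with a log2 fold change of -0.86 ± 0.16 (SE; unadjusted p 9.09e-04, adjusted p 0.44). It stayed negative and past the unadjusted threshold under all 20 alternatives tried, between -0.96 and -0.63, the last with the acinar covariate (p 0.0257). Sesn2, a stress-inducible sestrin, had 8.28, 8.39 and 8.19 in control and 9.05, 8.59, 8.66 and 8.84 in Wnt4βKO islets. It was thus above the controls on every Wnt4βKO array (log2 fold change 0.50 ± 0.12 (SE), unadjusted p 0.00426, adjusted p 0.516), and was at 0.21 with the acinar covariate (p 0.0936). Msra and Msrb1, which reduce oxidised methionine, had -0.45 and -0.65, or -0.40 (p 0.093) and -0.23 (p 0.418) with the acinar covariate, and Msrb2 and Sesn1 were the remaining 2 genes of this list past the unadjusted threshold.

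The supply and turnover of cysteine and glutathione contributed 4 genes, all lower. Cbs, which makes cystathionine on the route from homocysteine to cysteine, had log2 signals of 12.03, 11.14 and 11.68 in control and 10.63, 10.62, 10.96 and 10.61 in Wnt4βKO islets. The Wnt4βKO arrays were close together below the controls, at 53.2% of control (log2 fold change -0.91 ± 0.20 (SE), unadjusted p 0.00268, adjusted p 0.494). With the acinar covariate Cbs was at -0.74 (p 0.05). Chac1, which degrades glutathione, was at 58.6% of control (-0.77) and was at -0.94 with the covariate (p 0.0456). Ggt1, which splits extracellular glutathione, was at 56.0% of control (-0.84) and at -0.22 with the covariate (p 0.225). The size for Ggt1 depended on the offset, with -1.554 at an offset of 0 (limma p 0.0103) and -1.812 with the processed signal (p 0.0261). Cth, the next enzyme after Cbs, had -0.28, was well above background on 5 of 7 arrays and was at -0.11 with the covariate (p 0.357). It was at -0.985 with an offset of 0 (limma p 0.00806). In all 4 genes the groups did not overlap. The cystine transporter Slc7a11 was well above background on 0 of 7 arrays.

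The remaining lists gave 7 genes. Among the regulators of NRF2, Sqstm1, an autophagy adaptor that sequesters KEAP1, had a log2 fold change of -0.23 and Fbxw11, a ubiquitin ligase subunit, -0.32. Averaged over the probes of each gene, Fbxw11 was at -0.20 (limma p 0.294) and Sqstm1 at -0.42 (p 0.0407). With the processed signal Sqstm1 was at -0.07 (p 0.733). Of the 20 alternatives, Fbxw11 passed the unadjusted threshold in 5 and Sqstm1 in 7. Of the NADPH sources, mitochondrial Idh2 had -0.37. It was at -0.50 averaged over its probes (limma p 0.0228) and at -0.11 with the processed signal (p 0.632), and passed in 16 of the 20 alternatives. The pentose phosphate enzyme Pgd had 0.32, or 0.13 with the acinar covariate (p 0.491), and passed in 7 of the 20. Gstt3, another glutathione transferase, had -0.55, or -0.28 with the covariate (p 0.187) and -1.11 with an offset of 0 (limma p 0.00499). Ero1b, the endoplasmic reticulum oxidase that produces hydrogen peroxide while forming disulfides, was at 55.3% of control (-0.86 ± 0.28 (SE), unadjusted p 0.0166, adjusted p 0.629), with overlapping groups, and at -0.52 with the covariate (p 0.23). Hmox2, the constitutive haem oxygenase, had 0.30 on its brightest probe and lay above the controls there on every Wnt4βKO array, but averaged over its 2 probes it had 0.10 (p 0.41). The selenoprotein synthesis list had no gene past the unadjusted threshold among 7 tested.

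**Figure D4:**
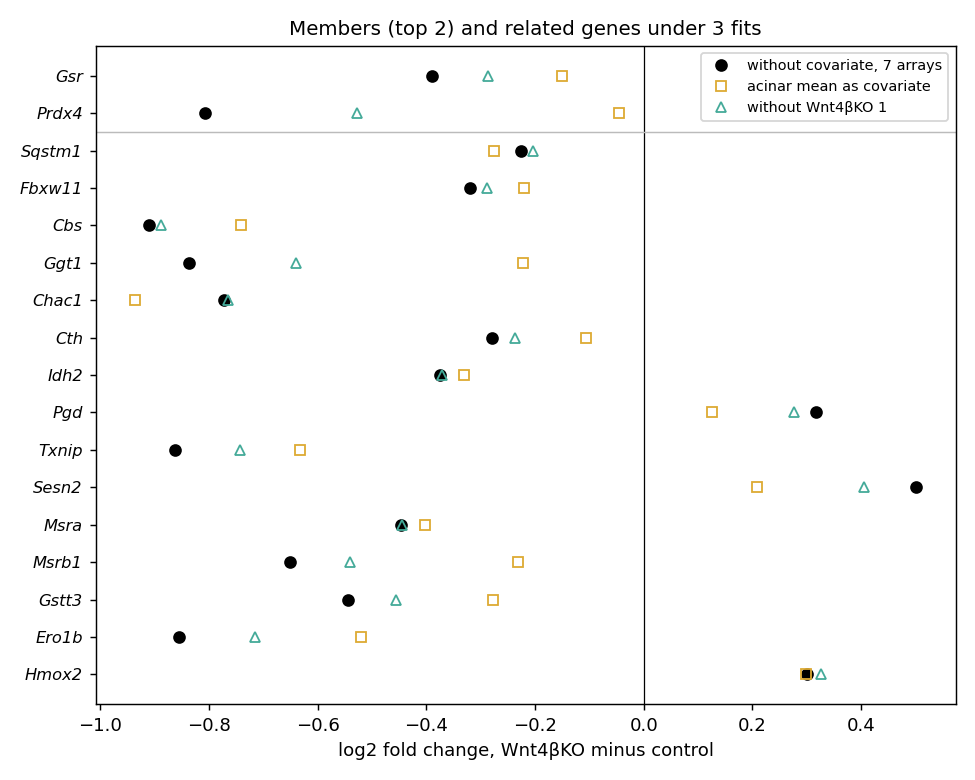
Log2 fold change, Wnt4βKO minus control, of Gsr, Prdx4 and 15 related genes in the fit without covariate (black circles), with the acinar mean as a covariate (yellow squares) and without Wnt4βKO replicate 1 (green triangles). All signs were kept in the 3 fits, Prdx4 moved from -0.81 to -0.04 with the covariate, and Txnip and Cbs stayed below -0.60.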

How the data were processed

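Islet RNA of 3 control and 4 Wnt4βKO samples was hybridised in 1 colour (Cy3, 50 ng of RNA). The authors deposited 1 scanner file per array (Feature Extraction 12.0.1.1, per the file headers) with spot intensities on a linear scale, not normalised between arrays. Median signals were background-corrected with normexp (offset 50), log2-transformed and quantile-normalised, following the study's methods. Control spots were dropped, spots marked as outliers were set to missing and repeated spots were averaged. After that 65 values were missing among the tested probes.

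Two-sided tests were run in limma 3.58.1 (R 4.3.3) on the 26151 of 56605 probes that were well above background on 3 or more arrays, and p-values were adjusted over these probes by the Benjamini-Hochberg method. The design named the mean signal, or the median where files carry only that, which they did. Accessions were matched to RefSeq (GRCm38.p6), which named 32994 probes (58.3%) and all 34 genes (44 probes). Other probes stayed unnamed. The deposited series value table was not used, since its columns could not be matched to the scanner arrays. The limma step was tested on simulated data.

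The genes, lists and tests were chosen with earlier results of these data known. Values on every array are given for genes with an unadjusted p under 0.05 or separate groups, for Nfe2l2, Keap1, Gpx1 and Cat, and for up to 10 further genes with the largest fitted changes; Prdx6 was added after its values were seen. Of the related lists, at most 4 genes per list with an unadjusted p under 0.05 are named, by smallest p; Msrb2 and Sesn1, beyond that limit, and Slc7a11 were named after their values were seen. Alternatives covered background correction, scaling, the filter, variance model, array weights, replicate and slide row blocks, probe averaging, an acinar covariate and each array left out.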

Additional observations from a re-analysis of the deposited data

Results flagged for a closer look

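Within the 4 Wnt4βKO arrays, 54 sets of values were examined for 1 array standing far from the other 3, measured as its gap to the nearest value over the whole range. In 5 the ratio was above Dixon's 95% critical value, where chance flags about 1 in 20. Gpx4 was lower in replicate 2, at a log2 signal of 11.50 beside 11.70 to 11.72 (ratio 0.909). Gpx8 was lower in replicate 1, at 6.10 beside 6.39 to 6.44 (0.853). Txn2 was higher in replicate 4, at 10.50 beside 10.07 to 10.14 (0.837). Gstm1 was higher in replicate 3, at 8.01 beside 7.59 to 7.63 (0.905). Cbs was also higher in replicate 3, at 10.96 beside 10.61 to 10.63 (0.943), where it remained below all controls. The 3 control arrays were too few for this comparison.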

How the results depend on the processing

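No antioxidant defence gene and no related gene passed the adjusted threshold under any of the 20 alternatives, and the median log2 fold change of the tested genes ranged from -0.039 with cyclic loess to 0.091 with the processed signal, where that of all probes was 0.032, and from -0.017 to 0.023 when single arrays were left out. The count of these genes at an unadjusted p under 0.05 was 1 with a normexp offset of 0, with the processed signal, without a filter on dim probes, with array weights and with a block for slide row. In those fits 6.55%, 6.78%, 5.14%, 7.45% and 7.86% of all probes passed, respectively. The count was 3 (Gpx2, Gsr and Prdx4) without background correction and with cyclic loess, beside 6.83% and 6.88%. A count of 2 did not always hold the same genes. Those were Gpx2 and Gsr with median scaling (beside 2.94%), and Gpx2 and Prdx4 with trended and robust variance (beside 6.49%). With single arrays left out the count ranged from 1 (without control replicate 3 or 4, beside 6.31% and 7.35% of all probes) to 4 (without Wnt4βKO replicate 2, beside 8.53%). Gsr was below 0 under all 20 alternatives (-0.49 to -0.15) and past the unadjusted threshold in 12. Prdx4 was below 0 in all 20 (-1.04 to -0.04) and past it in 9, and Gpx2 in 5.

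Replicate numbers recur in both groups. The deviations of same-numbered arrays had correlations of -0.131, 0.229 and -0.007 for numbers 2, 3 and 4. With so few arrays these cannot decide whether same-numbered arrays were pairs. The study compared Wnt4βKO islets with control littermates, and the meaning of the numbers was not determined. With the replicate number as a block, 1 gene (Nfe2l2) was past the unadjusted threshold, beside 5.98% of all probes. No control had number 1, so in this fit the block takes up Wnt4βKO replicate 1. The differences then rest on numbers 2, 3 and 4, as they do when that array is left out, so those fits are not separate checks. With the block Keap1 was 0.035, Cat 0.073 and Gstp1 0.104.

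Signs also turned for other genes, none past the unadjusted threshold with all arrays and no covariate. Keap1 was 0.091 with the processed signal, 0.066 with array weights, 0.021 with the acinar covariate and 0.011 with the row block. Cat was 0.020 with array weights, 0.220 with the acinar covariate and 0.009 with the row block. Prdx1 was 0.019 with the processed signal. With the acinar covariate Prdx5 was -0.110, Txn1 -0.033 and Gstp1 0.536. With single arrays left out, Keap1 ranged from -0.143 to 0.106, Cat from -0.053 to 0.072, Prdx1 from -0.447 to 0.042, Gpx1 from -0.049 to 0.257 and Gstp1 from -0.349 to 0.104. The cause was not tested.

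The alternatives for the related genes were added after the data were seen. Their count at the unadjusted threshold was 17 of 86 with 14 lower, beside 6.96% of all probes. It was 11 with 9 lower for the processed signal, beside 6.78% of all probes. Under median scaling it was 7 with 7 lower, beside 2.94%, and with the acinar covariate 4 with 3 lower, beside 2.21%. The share of all probes thus fell as well in the last 2 fits. The count ranged from 12 to 18 with single arrays left out, and the lower ones from 10 to 15, where 5.51% to 8.53% of all probes passed.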
